A study of Arabidopsis thaliana with 12 samples.

Results

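Binding of HD-ZIPIII proteins, a class of plant homeodomain leucine-zipper transcription factors, and of the co-repressor TOPLESS (TPL) was examined at the 50 genes of nuclear auxin signalling in Arabidopsis thaliana. The genes are the 6 TIR1/AFB receptors, 29 Aux/IAA genes and 15 ARF genes, out of 27432 nuclear protein-coding genes. A peak was counted for a gene when its summit lay inside that gene or within 2000 bp of it and no other protein-coding gene was nearer. By this rule 136 of 38038 nuclear peaks belonged to the 50 genes, 78 of them HD-ZIPIII peaks and 58 TPL peaks. The samples were whole seedlings of the Ler ecotype, 10 days old, grown in long days. Each of 6 lines expressed 1 protein from its genomic locus, fused at the C-terminal end to 2xYPet-3xHA: REV, PHB, PHV, ICU4, ATHB8 or TPL. ICU4 is the HD-ZIPIII protein also called CORONA or ATHB15. Chromatin was precipitated with an antibody against GFP, which recognises the yellow fluorescent YPet, and each line had its own input sample. There was 1 peak list per protein, untagged plants gave no list used here, and whole seedlings mix all tissues.

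In auxin signalling, TIR1 and its AFB relatives are F-box proteins that bind auxin together with Aux/IAA proteins, which are then ubiquitinated and degraded. Aux/IAA proteins hold ARF transcription factors in check, most of them by recruiting TPL through an EAR motif. ARFs bind auxin response elements, and the family is divided into activators, which have a glutamine-rich middle region, and repressors. Many Aux/IAA genes are themselves induced by auxin, which closes a negative feedback loop. HD-ZIPIII proteins promote upper (adaxial) leaf identity, meristem formation and xylem differentiation, processes in which auxin acts as well.

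The 6 lists held from 2790 nuclear peaks (PHB) to 12785 (TPL), and read depth is unknown because the lists give no counts. A fold enrichment below is the authors' value for a single peak, the precipitated signal over the local background, and it is read only within its own list. The rank of a peak is given as the top share of its list by fold enrichment. With 1 list per protein no value has a replicate error and no test was run, so counts are set beside the share of all protein-coding genes with a peak. Coordinates are on TAIR10. The gene table used here has no strand, so a position is given from the low-coordinate or the high-coordinate end of a gene, and the start of transcription cannot be told from its end. Genes of the light-harvesting complexes and the small subunit of RuBisCO, strongly transcribed loci without a known part in auxin signalling, had peaks more often than the auxin signalling genes. Of 22 such genes, 20 were in the TPL list and 18 in the ICU4 list, and between 13 (ATHB8) and 15 (PHB) in each of the other 4 lists. The part of transcription in the counts below was not tested.

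Of the 50 genes, 40 had a peak in at least 1 list, 24 had an HD-ZIPIII peak and 37 had a TPL peak. TPL peaks were found at 74% of the members, against 33.7% of all protein-coding genes. An ICU4 peak was found at 24 members (48%), against 22% of all genes. The PHB and PHV lists each held 11 members (22%), against 7.17% and 6.97% of all genes. REV held 6 members (12%, against 5.76%), and ATHB8 held 2 (4%, against 3.49%), a share near that of all genes. With an HD-ZIPIII peak of any kind stood 48% of the members and 26.6% of all genes. Both an HD-ZIPIII and a TPL peak were present at 21 members (42%), against 17.9% of all genes. Peaks of 4 or 5 HD-ZIPIII proteins were present at 4 members (8%), TIR1, IAA2, IAA16 and ARF2, against 2.65% of all genes. Every member in the REV, PHB, PHV or ATHB8 list was also in the ICU4 list, which is the longest of the 5. Among all genes with an HD-ZIPIII peak, 82.9% had an ICU4 peak. PHB and PHV shared 8 of their 11 members, which is 72.7% of the members in each list. The overlap of these lists over all genes was not counted. The members' gene regions were larger than those of all genes, with a median of 4368 bp against 3302 bp for the gene span plus the flanks nearest to it, and larger regions can catch more summits.

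**Figure D1:**
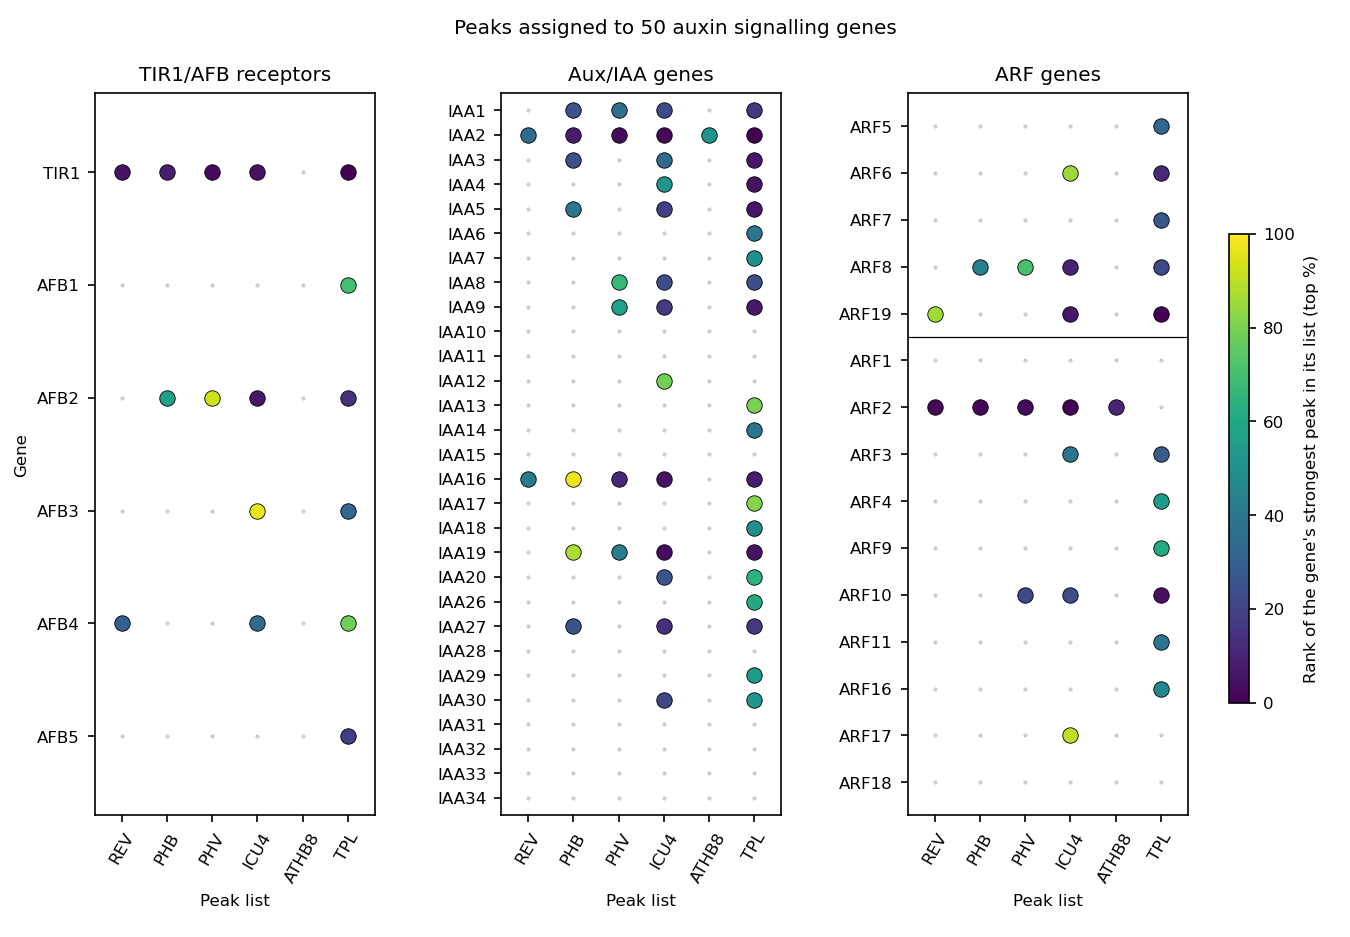
Peaks assigned to the 50 auxin signalling genes, with the 6 lists across and the genes down. A coloured circle marks an assigned peak and its colour the rank of the gene's strongest peak in that list (top percent by fold enrichment). A grey dot marks no assigned peak, and the line in the right panel parts the ARF activators (above) from the repressors. The TPL column holds 37 circles and the ICU4 column 24.

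Among the receptors, all 6 genes had a TPL peak and 4 had an HD-ZIPIII peak. TIR1 (AT3G62980), the founding auxin receptor, carried the strongest peaks of the family. Its fold enrichment was 5.91 in the REV list, 4.72 in PHB, 7.40 in PHV, 6.26 in ICU4 and 11.7 in TPL, with no ATHB8 peak. Each of these lay in the top 10% of its list, and the TPL peak in the top 0.743%. The 4 HD-ZIPIII summits fell between 23276587 and 23276648 on chromosome 3, from 43 bp inside the high-coordinate end of TIR1 to 18 bp beyond it. The TPL peak, from 23275799 to 23277827, had its summit at 23276564, within 84 bp of all of them. ICU4 had a further, weak peak (2.56) inside TIR1 under the same TPL peak. A second, weaker TPL peak (2.70) lay 22 bp outside the opposite end of TIR1, where no HD-ZIPIII list had a peak.

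AFB2 (AT3G26810), the receptor gene with the next highest number of lists, had a single HD-ZIPIII region just inside its low-coordinate end. The summits of PHB (2.98), PHV (2.29) and ICU4 (5.74) lay 29 to 84 bp into the gene, around a TPL summit with a fold enrichment of 6.40. Of these the ICU4 peak alone was in the top 10% of its list, at 6.11%, while the PHV peak ranked at 92.3%. AFB4 (AT4G24390), whose product is known as a receptor for the auxin herbicide picloram together with AFB5, differed in layout. It had a REV peak (4.27) and 4 ICU4 peaks spread through the gene, of which the strongest was 3.44, and a weak TPL peak (2.32) overlapped 1 of them. A further REV summit lay where AFB4 overlaps AT4G24380 and was assigned to that gene. AFB3 had a TPL peak (4.20) and a weak ICU4 peak (2.22) that did not overlap. AFB1 and AFB5 had TPL peaks alone, at 2.53 and 5.96.

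The Aux/IAA genes made up the largest family, and 20 of the 29 had a TPL peak (69.0%) and 13 an HD-ZIPIII peak (44.8%). An ICU4 peak was present at all 13, a PHB peak at 7, a PHV peak at 6, a REV peak at 2 and an ATHB8 peak at 1. IAA2 (AT3G23030), an auxin-induced repressor gene, was the single member with a peak in all 6 lists. By list, the strongest peak reached 14.0 for TPL, 8.83 for ICU4, 6.81 for PHV, 4.83 for PHB, 4.13 for REV and 3.14 for ATHB8. The TPL peak, from 8180792 to 8182293 on chromosome 3, ranked in the top 0.102% of its list, the highest rank of any member. The ICU4 peak ranked in the top 1.48% and the PHV peak in the top 2.86%, whereas those of REV (34.4%) and ATHB8 (51.7%) were ordinary for their lists. The strongest summits of the 5 HD-ZIPIII proteins lay between 8181861 and 8181966, inside IAA2 and 129 to 234 bp from its high-coordinate end. The TPL summit, at 8181926, lay among them, 2 bp from the ATHB8 summit.

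IAA16 (AT3G04730) had peaks in all lists but ATHB8. The strongest peak reached 7.996 for TPL, 6.33 for ICU4, 4.53 for PHV, 3.87 for REV and 2.21 for PHB. The summits of these 4 HD-ZIPIII peaks were packed into 16 bp, between 1291215 and 1291231 on chromosome 3, 324 to 340 bp beyond the high-coordinate end of the gene. The next gene, RALFL21, was 1128 to 1144 bp away from them. ICU4 had 3 further peaks inside IAA16 and REV had 1. The strongest of the 3 TPL peaks of the gene, from 1289403 to 1292762, spanned all of these HD-ZIPIII peaks.

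IAA19 (AT3G15540), an auxin-induced gene of hypocotyl growth and tropism, had a pair of regions on its low-coordinate side. The nearer region held PHB (2.55), PHV (3.23) and ICU4 (6.99) summits 97 to 145 bp outside the gene, with a TPL peak of 8.74. The farther region, at 1317 to 1320 bp, held PHV (3.27) and ICU4 (3.29) peaks and a TPL peak of 5.65. In both regions the TPL summit was within 57 bp of every HD-ZIPIII summit. The ICU4 peak of the nearer region ranked in the top 3.06% and its TPL peak in the top 4.97%.

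All 4 genes of the related group IAA1 to IAA4 had both an ICU4 and a TPL peak. IAA1 (AT4G14560) had PHB (3.62), PHV (3.38), ICU4 (3.88) and TPL (6.22) summits between 77 and 108 bp outside its low-coordinate end. IAA3 (AT1G04240, also SHY2) had a PHB peak (3.67) inside the gene under a TPL peak of 8.61, and an ICU4 peak (3.42) 1864 bp beyond its high-coordinate end, under a weaker TPL peak of 3.39. IAA4 (AT5G43700) had an ICU4 peak of 3.10, near the middle of its list, and a TPL peak of 8.89, in the top 4.54%. At all 3 of these genes the strongest TPL peak ranked higher in its list than any HD-ZIPIII peak did in its own. IAA5 (AT1G15580), an auxin-induced gene close to IAA6 and IAA19 in sequence, had PHB (3.24) and ICU4 (4.05) summits 172 to 185 bp beyond its high-coordinate end under a TPL peak of 8.68. Its relative IAA6 had a TPL peak alone.

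The group of IAA8, IAA9 and IAA27 had ICU4 and TPL peaks at all 3 genes. At IAA8 (AT2G22670) the PHV (2.85) and ICU4 (3.81) summits lay 971 to 998 bp outside the low-coordinate end, at a TPL peak of 5.17. IAA9 (AT5G65670), a repressor of leaf and fruit development known from tomato as well, had PHV (3.00), ICU4 (4.19) and TPL (8.30) summits 99 to 166 bp outside its low-coordinate end. IAA27 (AT4G29080) had PHB (3.62), ICU4 (4.43) and TPL (6.20) summits 830 to 848 bp beyond its high-coordinate end. IAA8 and IAA9 had PHV peaks without PHB, and IAA27 a PHB peak without PHV.

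Other groups of the family had few HD-ZIPIII peaks. IAA7, IAA14 and IAA17, the closest relatives of IAA16 and known for dominant mutants with strong auxin resistance, had TPL peaks alone, the strongest of each between 2.24 and 3.81. Of IAA10 to IAA13, IAA12 (BODENLOS, the partner of ARF5 in the embryo) had an ICU4 peak alone (2.68) and IAA13 a TPL peak alone (2.28). IAA18, IAA26 and IAA29 had TPL peaks alone, between 2.81 and 3.24. The 6 genes known for a missing or altered degron, the stretch that the receptors bind, are IAA20 and IAA30 to IAA34. Of these, IAA20 and IAA30 had ICU4 and TPL peaks and the other 4 had no peak in any list. TPL peaks were thus found at 33.3% of these 6 genes, near the 33.7% of all protein-coding genes, and at 78.3% of the other 23. This grouping was made after the values were seen and was not tested. No peak was assigned to IAA10, IAA11, IAA15, IAA28 or IAA31 to IAA34, of which IAA11, IAA15 and IAA34 had peaks within 2000 bp that lay nearer to another gene.

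**Figure D2:**
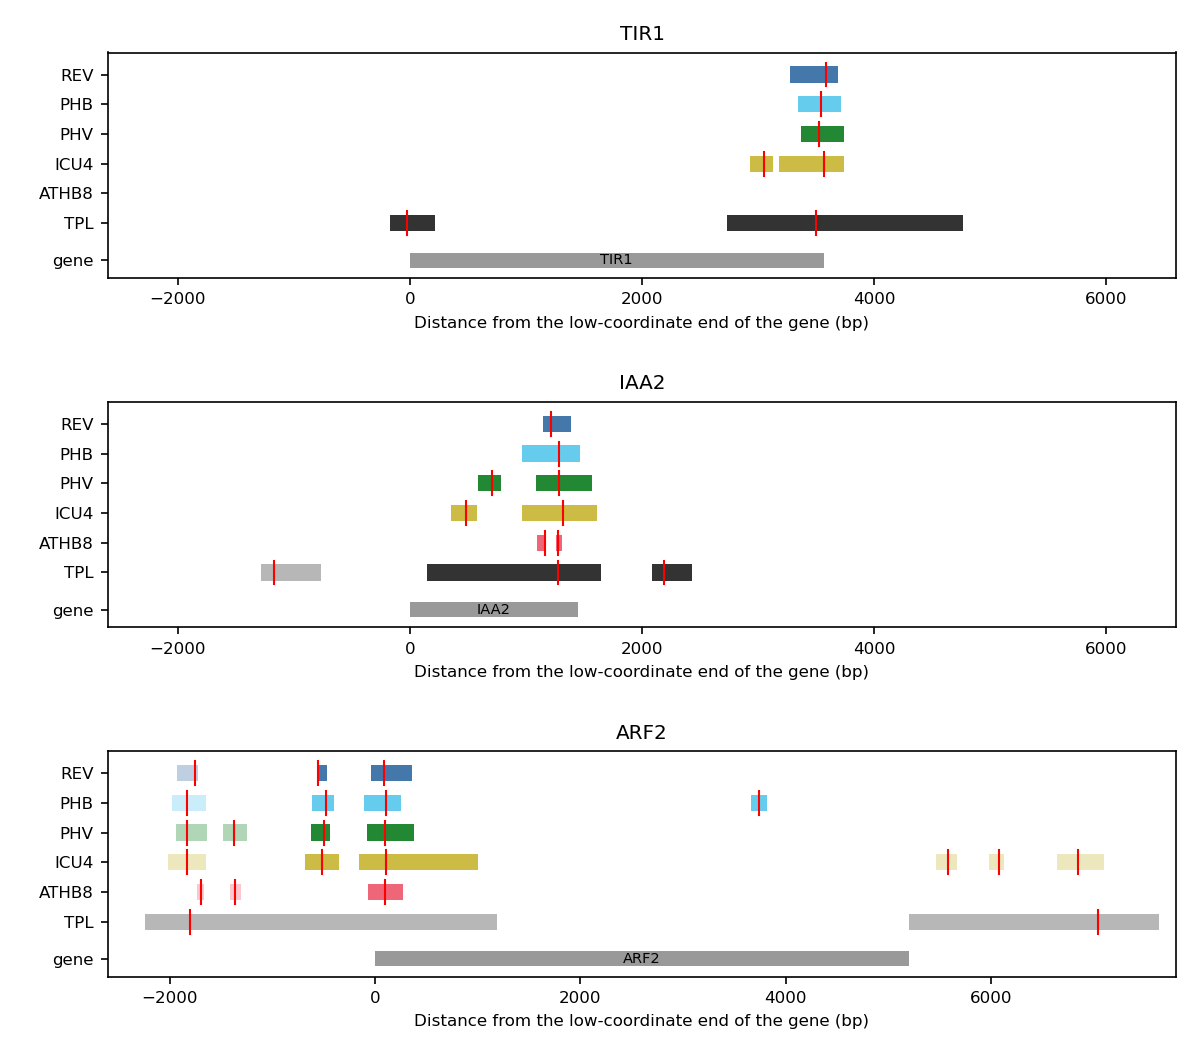
Peaks around TIR1, IAA2 and ARF2, 1 panel per gene, with the distance from the low-coordinate end of the gene in bp across and the 6 lists down. Bars span peaks with a summit within 2000 bp of the gene, red ticks mark summits, grey boxes the gene, and pale bars are peaks assigned to another gene. At ARF2 the HD-ZIPIII summits between 90 and 108 bp lie under a pale TPL bar whose summit is 1805 bp outside the gene.

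Of the 15 ARF genes, 11 had a TPL peak (73.3%) and 7 an HD-ZIPIII peak (46.7%). Without the ICU4 list, 4 had an HD-ZIPIII peak, and the share of all genes was not counted for that setting. ARF2 (AT5G62000), a repressor ARF that limits cell division and organ size, was the single ARF gene in all 5 HD-ZIPIII lists. Its strongest ICU4 peak (12.0) ranked in the top 0.536% of the list and its PHB peak (7.53) in the top 1.29%. The REV peak (7.13) ranked in the top 1.51%, the PHV peak (7.19) in the top 2.44% and the ATHB8 peak (4.15) at 10.1%. These summits lay within 18 bp of each other, between 24910281 and 24910299 on chromosome 5, 90 to 108 bp inside the low-coordinate end of the gene. A second region, of REV, PHB, PHV and ICU4, lay 477 to 557 bp outside that end, with fold enrichments from 2.48 for PHB to 6.03 for ICU4. PHB had a further peak (2.98) deeper inside the gene.

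No TPL peak was assigned to ARF2, but the HD-ZIPIII regions near its low-coordinate end were covered by one. A TPL peak from 24907950 to 24911377, with a fold enrichment of 11.3 and a rank in the top 1.02% of the list, spanned both regions but not that further PHB peak. Its summit, at 24908386, was 1805 bp outside ARF2 and nearest to AT5G61997, to which the peak was assigned. REV, PHB, PHV and ICU4 summits lay at 24908359 to 24908439 beside that TPL summit, so the broad TPL peak held HD-ZIPIII peaks of both genes. Another TPL peak, assigned to HSFB2A, touched the opposite end of ARF2. ARF2 is therefore missing from the TPL count by the summit rule, while TPL peaks reached over both of its ends.

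All 5 ARF activators had a TPL peak, against 6 of the 10 repressors. An HD-ZIPIII peak was present at 3 activators and 4 repressors, and without the ICU4 list at 2 and 2. No share of all genes was counted without ICU4. The strongest TPL peak of each activator was 12.3 at ARF19, 7.15 at ARF6, 5.34 at ARF8, 4.78 at ARF7 and 4.26 at ARF5. Among the repressors it was 9.19 at ARF10, 4.68 at ARF3, 3.82 at ARF11, 3.38 at ARF16, 3.04 at ARF4 and 2.80 at ARF9. The median was 5.34 over the activators and 3.60 over the repressors with a TPL peak, and the groups overlapped. The repressors ARF2 and ARF18 are not in that median. TPL peaks of 11.3 and 5.24 reached into them but were assigned to other genes by their summits. Activator genes are long, with a median span of 5167 bp against 3814 bp for the repressors. Of all genes with a span plus flanks in the range of the activators, 43.7% had a TPL peak and 35% an HD-ZIPIII peak. In the range of the repressors, 44.4% had a TPL peak and 34.1% an HD-ZIPIII peak. With summits counted only within 1000 bp, 3 activators and 5 repressors had a TPL peak (32.1% of all genes). The TPL summits of the activators ARF5 and ARF7 lay 1971 and 1217 bp away. With the TPL list reduced to its strongest 2790 peaks, 2 activators and 1 repressor had a TPL peak (8.58% of all genes). With a peak assigned to all genes within 2000 bp, 5 activators and 9 repressors had a TPL peak (52.2% of all genes). The size of the difference thus depended on how summits were assigned to genes. The difference between activators and repressors was not tested.

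Among the activators, ARF19 (AT1G19220), which acts with ARF7 in lateral root formation, had the strongest TPL peak, in the top 0.477% of the list. Its ICU4 peak of 5.89 ranked in the top 5.68% and its REV peak of 2.91 at 85.9%. The REV and ICU4 summits lay 2 bp apart at 6627813 and 6627815 on chromosome 1, 130 to 132 bp inside the low-coordinate end, 19 to 21 bp from the TPL summit. The neighbouring gene AT1G19210 was 125 to 127 bp away on the other side, so these summits are about as near to it as to that end of ARF19. ARF8 (AT5G37020), a target of miR167 with roles in flower and hypocotyl growth, had PHB (3.18), PHV (2.81), ICU4 (5.10) and TPL (5.34) summits from 31 bp outside to 20 bp inside its low-coordinate end. ARF6, its closest relative, had its strongest TPL summit 67 bp outside its low-coordinate end and a weak ICU4 peak (2.58) 439 bp inside that end. ARF5 (MONOPTEROS) and ARF7 had no HD-ZIPIII peak.

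Among the repressors, ARF10 (AT2G28350), a target of miR160, had PHV (3.81), ICU4 (3.87) and TPL (9.19) summits 1028 to 1052 bp beyond its high-coordinate end, where the next gene, AT2G28355, was 1276 to 1300 bp away. It also had a TPL peak of 7.58 on the other side and a TPL peak of 4.74 inside the gene. ARF3 (ETTIN), which acts in abaxial leaf identity, had an ICU4 peak (3.31) and a TPL peak (4.68) with summits 18 bp apart inside the gene. ARF17, the third target of miR160 in the family, had weak ICU4 peaks alone, of which the stronger was 2.50. ARF4, ARF9, ARF11 and ARF16 had TPL peaks alone, and ARF1 and ARF18 had no assigned peak.

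Between the families, the receptors had the highest shares in 5 of the 6 lists, on 6 genes. TPL peaks stood at 100% of the receptors, 69.0% of the Aux/IAA genes and 73.3% of the ARF genes. The shares with an HD-ZIPIII peak were 66.7%, 44.8% and 46.7%. Among all genes with a span plus flanks in the range of the receptors, 40% had a TPL peak and 30.5% an HD-ZIPIII peak. In the range of the Aux/IAA genes the shares were 34.7% and 27%, and in the range of the ARF genes 44.3% and 34.2%. Each family stood above these shares in both counts. The ranges were wide, and that of the Aux/IAA genes took in 24435 of the 27432 genes, so size was not closely matched. The difference between families was not tested, and moving 1 receptor changes its share by 16.7 percentage points. PHB peaks were at 24.1% of the Aux/IAA genes and 13.3% of the ARF genes, and REV peaks at 6.90% and 13.3%, which are 2 members of each family for REV.

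**Figure D3:**
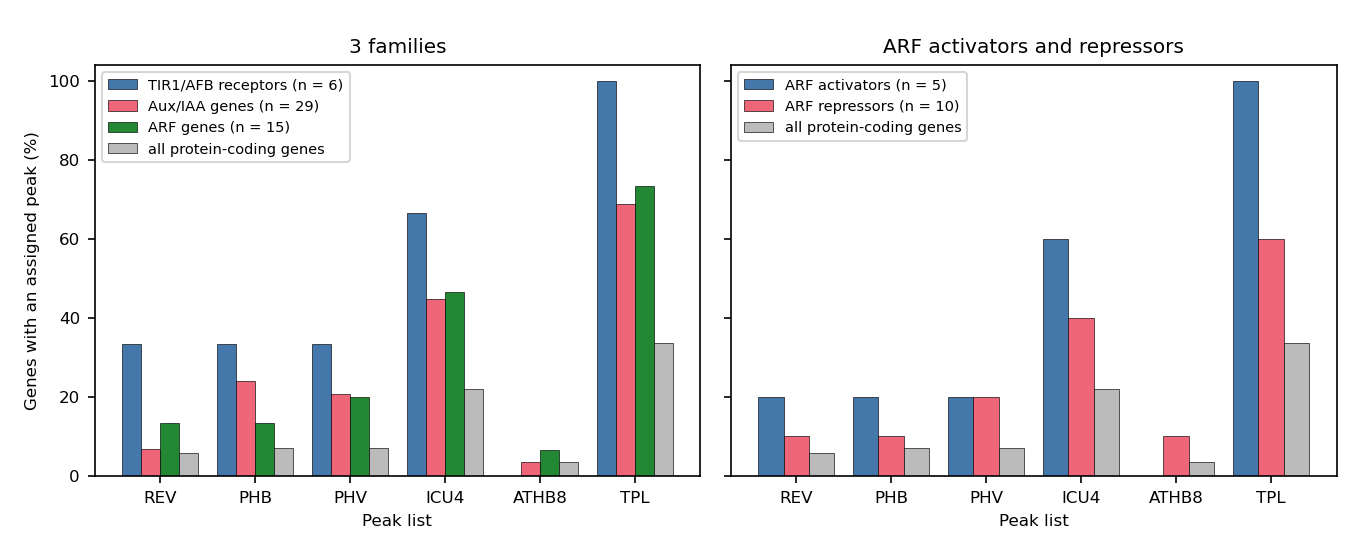
Share of genes with an assigned peak (percent, axis from 0) by list, for the 3 families on the left and for ARF activators and repressors on the right, with all protein-coding genes in grey. Bars are counts over genes and carry no error, as there was 1 list per protein. In the TPL list the bars stand at 100%, 69.0% and 73.3% for the families and at 33.7% for all genes.

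Overlapping HD-ZIPIII peaks of a member were merged into regions, which favours near summits within a region. The 78 HD-ZIPIII peaks formed 43 regions, of which 18 held 2 or more proteins and 9 held 3 or more. Within the 18 regions the strongest summits of the different proteins spanned a median of 31 bp, from 2 bp at ARF19 to 105 bp at IAA2. At IAA3 the PHB and ICU4 peaks did not overlap and lay in separate regions. A TPL peak overlapped 17 of these 18 regions, the exception being the REV and ICU4 region of AFB4. In 14 of them the TPL summit lay within 100 bp of an HD-ZIPIII summit. The other 3 were both ARF2 regions and the inner region of IAA16, each under a broad TPL peak. Of the 25 regions of a single list, 16 overlapped a TPL peak. Regions were formed at the members alone, so these counts have no share over all genes beside them.

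**Figure D4:**
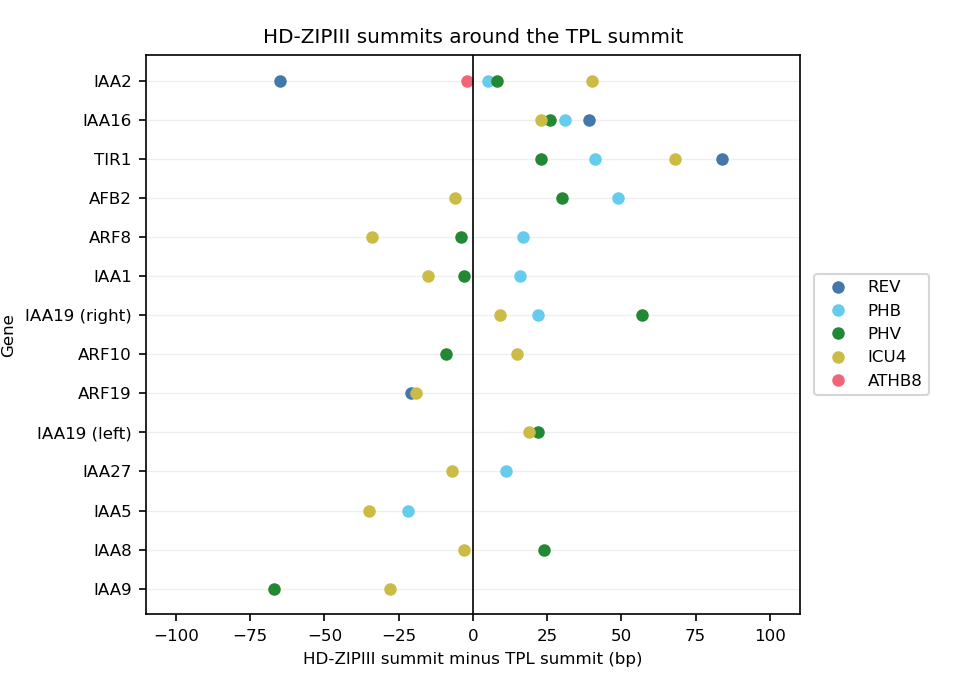
Position of the HD-ZIPIII summits relative to the TPL summit (bp, across) in the 14 regions of 2 or more HD-ZIPIII proteins with a TPL summit within 100 bp, 1 row per region. Each point is the strongest summit of 1 protein in the region, and left and right name the lower and higher coordinates at IAA19. The points lie from 67 bp to the left of the TPL summit (PHV at IAA9) to 84 bp to its right (REV at TIR1).

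By single peaks, a TPL peak overlapped 7 of 8 REV, 13 of 14 PHB, 14 of 14 PHV, 30 of 39 ICU4 and 3 of 3 ATHB8 peaks at the members. Among all peaks assigned to a gene the shares were 81.5% for PHB, 77.9% for PHV, 71.2% for ICU4, 70.1% for REV and 30.9% for ATHB8. The ICU4 share at the members, 76.9%, was near that of all its assigned peaks. Counted by genes, 21 of the 24 members with an HD-ZIPIII peak (42% of all members) had one overlapped by a TPL peak, the exceptions being AFB3, IAA12 and ARF17. Among all genes 17% had such a pair, and among all genes with an HD-ZIPIII peak 64%. When summits had to lie within 100 bp of each other, the count was 17 members, and the share of all genes was not counted at that distance.

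The TPL peaks of members with an HD-ZIPIII peak were stronger than those of members without. The median of the strongest TPL peak was 7.15 over the 21 members with an HD-ZIPIII peak, ranging from 2.32 to 14.0. It was 3.26 over the 16 members without, ranging from 2.24 to 5.96. All 10 members whose TPL peak was in the top 10% of its list had an HD-ZIPIII peak: TIR1, IAA2, IAA3, IAA4, IAA5, IAA9, IAA16, IAA19, ARF10 and ARF19. The same order was seen over all genes with a TPL peak, with medians of 4.41 and 2.90, so it was not particular to auxin signalling. Of all 9239 genes with a TPL peak, 4898 had an HD-ZIPIII peak. That share was not counted for all genes whose TPL peak ranked in the top 10%. The groups overlapped, as AFB4, IAA20 and IAA30 had an HD-ZIPIII peak and TPL values from 2.32 to 3.13.

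**Figure D5:**
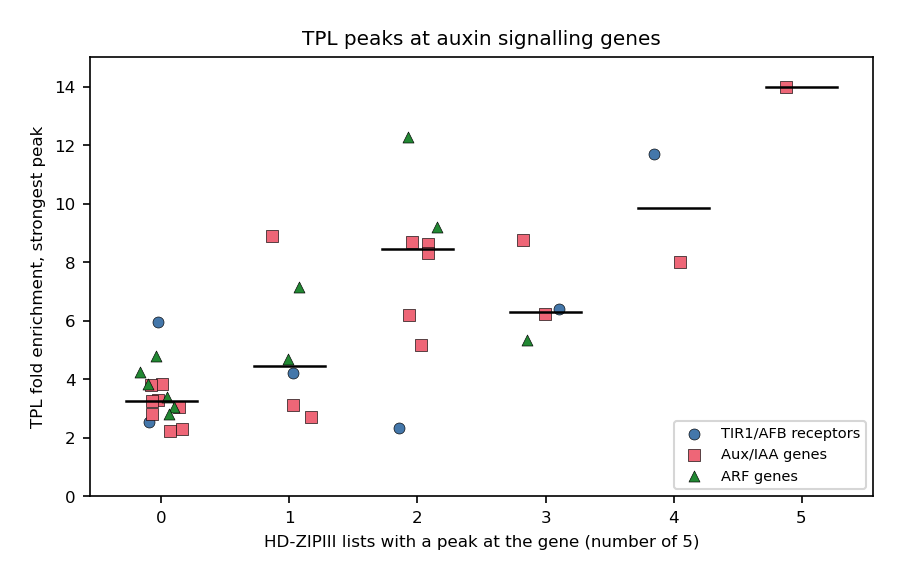
Fold enrichment of the strongest TPL peak (vertical, from 0) at the 37 members with a TPL peak, by the number of HD-ZIPIII lists with a peak at the gene. Symbols mark the 3 families, points are spread sideways for legibility, and lines are medians. The 16 members without an HD-ZIPIII peak lie between 2.24 and 5.96, and IAA2, with all 5, lies at 14.0.

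Other genes of the pathway differed from one gene list to another. Over all protein-coding genes, 33.7% had a TPL peak and 26.6% an HD-ZIPIII peak. The gene lists below are small, and no difference from these shares was tested. Of 8 genes of the ubiquitin ligase and its cofactors, such as ASK1, CUL1, RBX1 and AXR1, ECR1 had an ICU4 (3.39) and a TPL peak (2.49) and RCE1 a TPL peak (3.73), and the other 6 had none. That is 25% of these genes for TPL and 12.5% for HD-ZIPIII, both below the shares of all genes. All 5 genes of the TOPLESS family had a TPL peak and 4 an HD-ZIPIII peak, with TPR2 in all 6 lists at 11.9 for TPL and 7.94 for PHV. TPL itself is the tagged locus in the TPL line. Of 8 further genes linked to auxin signalling (LBD16, LBD18, LBD29, TMO5, TMO7, DRN, HB5 and ATHB8), 5 had a TPL and 5 an HD-ZIPIII peak (62.5% each). ATHB8 is the tagged locus in the ATHB8 line, and its HD-ZIPIII peak (2.54) was in that list alone. HB5, a homeodomain leucine-zipper gene, was in all lists but ATHB8, at 9.43 for ICU4 and 11.6 for TPL. The ARF genes outside the 15, a group of 8 relatives (ARF12 to ARF15 and ARF20 to ARF23), had 1 weak TPL peak, at ARF21 (1.63), and no HD-ZIPIII peak.

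At the edge of the rule, the outermost summits counted were TPL summits of IAA14 at 1973 bp and ARF5 at 1971 bp, with fold enrichments of 3.81 and 4.26. The nearest ones left out were a TPL summit (5.46) and an ICU4 summit (5.57) of ARF19 at 2003 and 2013 bp and an ICU4 summit (3.44) of ARF5 at 2027 bp. At ARF6, summits of TPL (9.79), ICU4 (5.19), PHV (4.17) and REV (3.997) lay together at 2177 to 2248 bp, just outside the rule. Near IAA6, PHB (3.41) and ATHB8 (4.08) summits lay at 2040 and 2047 bp.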

How the data were processed

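Reads were aligned and peaks called with Bowtie2 and MACS2 on TAIR10, per the submitters' processing notes (no versions named). Per the series text each precipitation was set against its own input. The text also speaks of duplicates, and the sources used here do not say whether they were pooled. Per the file headers, the columns are a fold enrichment, which is a linear ratio, a pileup, which is a coverage signal, and −log10 p-values and q-values as the authors deposited them. Of these only the fold enrichment entered the results. Read depth is unknown.

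Peaks on the 5 nuclear chromosomes were assigned by summit to the nearest protein-coding gene within 2000 bp, using the RefSeq gene table of assembly TAIR10.1, in which all 50 members were matched by locus tag. Among genes at the same distance the gene whose middle was nearest was taken (406 peaks, none of them assigned to a member, while 1 REV summit inside both AFB4 and AT4G24380 went to AT4G24380). Peaks overlapped when sharing at least 1 bp. Assignment was tested on simulated data with known answers. Python 3.11.15, pandas 2.3.3 and numpy 2.4.6 were used.

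The members and lists were chosen with earlier results of these data known. Values are given for members with a peak in 3 or more lists or in the top 10% of a list, for all receptors, and, chosen after the values were seen, for the TPL peaks of all ARF genes and for every other member whose value is printed (such as ARF3, ARF6, ARF17 and IAA12). The Aux/IAA groups were also added after the values were seen. Planned counts of promoter motifs and of Aux/IAA protein motifs, and printed promoters, needed sequences not used here. Inputs were not analysed here.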

Additional observations from a re-analysis of the deposited data

How the results depend on the processing

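Counts were repeated with summits within 1000 bp, with a peak assigned to all genes within 2000 bp, with the upper part of each list by fold enrichment (at or above its median), with lists reduced to their strongest 2790 peaks, and, chosen after seeing the data, without the ICU4 list. Counts changed by more than 1.5 times as follows. With lists of equal length, where 8.58% of all genes had a TPL peak, TPL peaks stood at 15 members: 3 receptors, 9 Aux/IAA genes and 3 ARF genes, of which 2 were activators and 1 a repressor. HD-ZIPIII peaks then stood at 4 ARF genes, 2 of them repressors, and 13 members had an HD-ZIPIII peak overlapped by a TPL peak. Without the ICU4 list, 4 ARF genes and 2 ARF repressors had an HD-ZIPIII peak. The share of all genes with any HD-ZIPIII peak was not counted for lists of equal length or without ICU4. Within 1000 bp, 3 ARF activators had a TPL peak (32.1% of all genes). In the upper part of the lists, 7 of the 50 members had a PHV peak (3.74% of all genes) and 1 an ATHB8 peak (1.47%, a share near that of the members). All other counts named in the analysis plan stayed within 1.5 times. No paired analysis was possible because each protein had 1 list.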

Other observations

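In all, 68 peaks had a summit within 2000 bp of a member but nearer to, or equally near to, another gene. ARF18 was one such member: REV (3.30), PHB (4.84), PHV (4.15), ICU4 (7.60) and TPL (5.24) summits lay 1138 to 1251 bp away and were assigned to AT3G61826, and the TPL peak, from 22886403 to 22888152 on chromosome 3, reached into ARF18. Nearer REV (3.48), PHB (2.73) and PHV (3.40) summits, 677 to 914 bp from ARF18, were assigned to AT3G61829. IAA15 had PHB (4.76), PHV (3.90), ICU4 (5.70) and TPL (4.74) summits 1413 to 1460 bp away, assigned to AT1G80400. At IAA16 a further group of PHB (3.84), PHV (4.75) and ICU4 (6.20) summits, 1203 to 1238 bp from the gene, lay inside the same broad TPL peak and was assigned to RALFL21. IAA11 had ICU4 (3.80) and TPL (6.32) summits 548 to 559 bp away, assigned to ABCB23. With a peak assigned to all genes within 2000 bp, 43 of the 50 members had a TPL peak, against 52.2% of all genes. There were 31 members with an ICU4 peak (all genes 36.5%), 15 with a PHB peak (12.7%) and 14 with a PHV peak (11.8%). REV peaks were at 7 members (all genes 9.74%) and ATHB8 peaks at 2 (5.49%). The ATHB8 share was below that of all genes, and the REV share was somewhat above it.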
